A study of Saccharomyces cerevisiae with 12 samples.

Results

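The 10 genes described here encode the core of peroxisomal fatty acid oxidation in Saccharomyces cerevisiae: POX1, FOX2, POT1, FAA2, CTA1, PXA1, ECI1, PEX11, OAF1 and PIP2. They were found by gene symbol in the deposited table of normalised counts, where each matched 1 row, and they are 10 of the 6775 genes measured. RNA was sequenced from a Cyc8 anchor-away strain (Cyc8-AA) of the HHY221 background, in which CYC8 carries an FRB tag, the ribosomal protein gene RPL13A carries FKBP12, and tor1-1 with loss of FPR1 makes growth insensitive to rapamycin. Rapamycin tethers the tagged Cyc8p to the ribosomal anchor and takes it out of the nucleus, and all samples of the series carry these alleles. In the Flo+ Cyc8-AA experiment, cultures in the glucose medium YPD at 30 °C received rapamycin at 1 µg/ml (+Rap), after which they flocculated, or solvent alone (-Rap), for 4 h. In the Flo- Cyc8-AA experiment, mannose at 0.25 M was present, which blocks flocculation, and the cultures received rapamycin (+Rap +Man) or solvent (-Rap +Man) for the same 4 h. Each of the 4 groups holds 3 biological replicates, the treated and control samples coming from divided cultures. All samples are of 1 strain, and rapamycin without an FRB tag on CYC8 was not analysed here.

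In yeast, beta-oxidation of fatty acids takes place in peroxisomes and not in mitochondria. Fatty acids enter through an ABC transporter or are activated inside, pass through an acyl-CoA oxidase, a multifunctional hydratase-dehydrogenase and a thiolase, and leave as acetyl-CoA, while the hydrogen peroxide from the oxidase step is broken down by catalase. The genes are known to be repressed on glucose and induced on oleate, when the zinc cluster proteins Oaf1p and Pip2p bind as a pair to oleate response elements (OREs) in their promoters, together with the activator Adr1p at many of them. Cyc8p acts with Tup1p as a corepressor brought to promoters by DNA-binding proteins.

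The promoters were searched for the ORE to show what the 10 genes share at the level of sequence. The motif was spelled as a CGG followed by 3 free bases, a T, a free base, an A, a spacer of 9 to 12 free bases and a CCG, so from CGGNNNTNANNNNNNNNNCCG to CGGNNNTNANNNNNNNNNNNNCCG, on both strands of the 500 bases before the annotated start of each gene. The sequence is that of the S288c reference (RefSeq, assembly R64), not of the strain itself. Of the 10 genes, 8 held a match (80.0%), against 114 of all 6208 promoters searched (1.84%), and no match was found in these windows of OAF1 and PXA1. The genes are known for OREs in their promoters, so a high share was given beforehand and is not read as a result. The 10 matching stretches are written 5′ to 3′ on the strand named, with the fixed letters of the motif in capitals.
POT1, chrIX:41610-41632, minus strand: CGGggaTaAtagtattaacaCCG
POX1 near site, chrVII:107883-107905, plus strand: CGGtcaTtAgcggctaatagCCG
POX1 far site, chrVII:107846-107868, minus strand: CGGagtTtAatcaactaataCCG
FOX2 near site, chrXI:457305-457325, plus strand: CGGcgtTaAcaaatttccCCG
FOX2 far site, chrXI:457337-457358, plus strand: CGGactTaAaactaggcttCCG
ECI1, chrXII:707191-707213, minus strand: CGGgcaTaAgaaatattattCCG
PEX11, chrXV:48756-48778, minus strand: CGGcatTtAtctcggagaacCCG
FAA2, chrV:184355-184377, minus strand: CGGcgtTaAagactgacggtCCG
CTA1, chrIV:969866-969889, minus strand: CGGcttTaAcaaatataaactCCG
PIP2, chrXV:1023348-1023368, minus strand: CGGaacTaAatataatctCCG

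The stretches of POT1, the near site of POX1, CTA1 and PIP2 also match when read on the other strand, so each pairs both half-motifs. POX1 and FOX2 were the members with more than 1 site. The matches began between 113 bases (PEX11) and 290 bases (far site of POX1) before the gene. A match is a description of letters and does not show that a factor was bound.

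**Figure D1:**
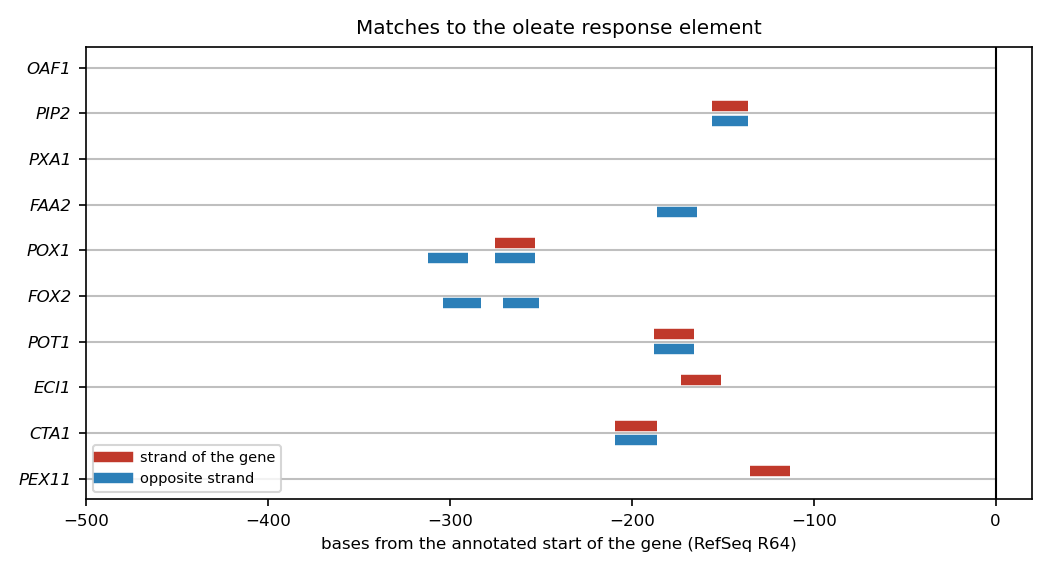
Positions of matches to the oleate response element in the 500 bases before each of the 10 genes, in bases from the annotated start (horizontal axis), with red bars for matches on the strand of the gene and blue bars for matches on the opposite strand. A total of 8 genes carry at least 1 bar, and OAF1 and PXA1 carry none.

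Between 26125728 and 30562700 reads per sample were counted on genes in the +Rap group and between 27113127 and 29595591 in the -Rap group. The +Rap +Man samples had 41896192 to 48675825 and the -Rap +Man samples 35905327 to 51088194. Normalized counts below are raw counts scaled by TMM (trimmed mean of M-values) factors, set to the average depth of the 12 libraries. Reads were paired-end in the Flo+ and single-end in the Flo- experiment and were generated at different times, so between experiments mannose, read layout and run cannot be told apart. The first principal component of the samples separated the experiments and the second separated rapamycin from solvent, and no library stood apart from its group. The flocculin gene FLO11, given as a check of the labels, had 222544 to 326564 normalized counts in +Rap samples, against 264 to 321 in -Rap samples. Under mannose it had 275246 to 299075 in +Rap +Man samples, against 185 to 286 in -Rap +Man samples. Anchor-away takes the protein out of the nucleus, so CYC8 mRNA does not check the depletion. It had 2459 to 2921 normalized counts in +Rap samples, against 1712 to 2347 in -Rap samples. Under mannose the direction was the other way, with 1415 to 1820 in +Rap +Man samples, against 1852 to 2194 in -Rap +Man samples.

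POT1 was the member that changed most when Cyc8p was depleted. It encodes the thiolase that carries out the last step of each beta-oxidation cycle, and it lies on chromosome IX from base 40191 to 41444 on the minus strand (R64). It had 1131, 1260 and 1527 normalized counts in +Rap samples, against 188, 195 and 128 in -Rap samples. The lowest +Rap sample was several times above the highest -Rap sample. The log2 change was 2.94 (SE 0.19, limma with Benjamini-Hochberg adjusted p = 1.5e-05), a 7.68-fold higher level. In the Flo- experiment it had 790.0, 777 and 793 normalized counts in +Rap +Man samples, against 31.0, 59.9 and 15.6 in -Rap +Man samples. The treated samples were nearly alike, whereas the controls varied among themselves, at 47, 70 and 23 reads before scaling. The log2 change was 4.60 (SE 0.38, adjusted p = 1.2e-05). In bulk RNA, more transcript per cell and more cells with the transcript cannot be told apart, which holds for every change below.

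Genes were called where the adjusted p over all genes tested was at most 0.01 and the log2 change at least 1 in size. All 10 members passed the filter on low counts in every comparison. In the Flo+ experiment, POT1 was the 1 of 10 called higher, against 11.0% of all 6100 genes tested, and 0 of 10 were called lower, against 2.08%. All 10 log2 changes were positive, against 48.7% of all genes, with a median of 0.52, beside -0.02 over all genes, and 4 of the 10 were higher at an adjusted p of at most 0.01 whatever the size, against 15.5% of all genes. In the Flo- experiment, 3 of 10 (POT1, POX1 and PEX11) were called higher, against 14.8% of all 6325 genes, and 0 of 10 lower, against 2.59%. There 6 of the 10 log2 changes were positive, against 47.2% of all genes, with a median of 0.27, beside -0.04 over all genes. The share of members called was close to that of all genes in the Flo+ experiment, and with 10 members nothing particular to them is read from either count.

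The other enzymes of the cycle changed less than POT1. POX1 encodes the acyl-CoA oxidase, the first and rate-limiting step, which releases hydrogen peroxide. It had 451, 484 and 459 normalized counts in +Rap samples, against 281, 244 and 214 in -Rap samples. The ranges did not overlap, and the log2 change of 0.92 (SE 0.14, adjusted p = 0.0014) fell just short of the size asked for a call. Without the first -Rap sample it was 1.02 (adjusted p = 0.0016) and would be called. In the Flo- experiment POX1 had 157, 125 and 170.0 normalized counts in +Rap +Man samples, against 60.1, 47.9 and 69.7 in -Rap +Man samples. The log2 change was 1.35 (SE 0.23, adjusted p = 0.0012), which was called. The treated samples with mannose thus held fewer POX1 reads than the untreated samples without it.

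FOX2 encodes the multifunctional enzyme of the middle steps, an enoyl-CoA hydratase and 3-hydroxyacyl-CoA dehydrogenase. It had 1622, 1819 and 1892 normalized counts in +Rap samples, against 1098, 1053 and 1146 in -Rap samples. In the Flo- experiment it had 1285, 1022 and 1083 in +Rap +Man samples, against 574, 678 and 732 in -Rap +Man samples. The groups did not overlap in either experiment. The log2 changes of 0.69 (SE 0.11, adjusted p = 0.0016) and 0.80 (SE 0.14, adjusted p = 0.0017) were close in size and passed the p threshold but not the size.

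ECI1 encodes the isomerase that moves double bonds so that unsaturated fatty acids such as oleate can enter the cycle. It had 485, 441 and 509 normalized counts in +Rap samples, against 298, 254 and 420.0 in -Rap samples. It had 317, 263 and 267 in +Rap +Man samples, against 167, 234 and 204 in -Rap +Man samples. The treated samples lay above the controls in both experiments, but the third -Rap sample came close to the +Rap range. The log2 changes were 0.59 (SE 0.19, adjusted p = 0.036) and 0.52 (SE 0.18, adjusted p = 0.035), neither called.

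**Figure D2:**
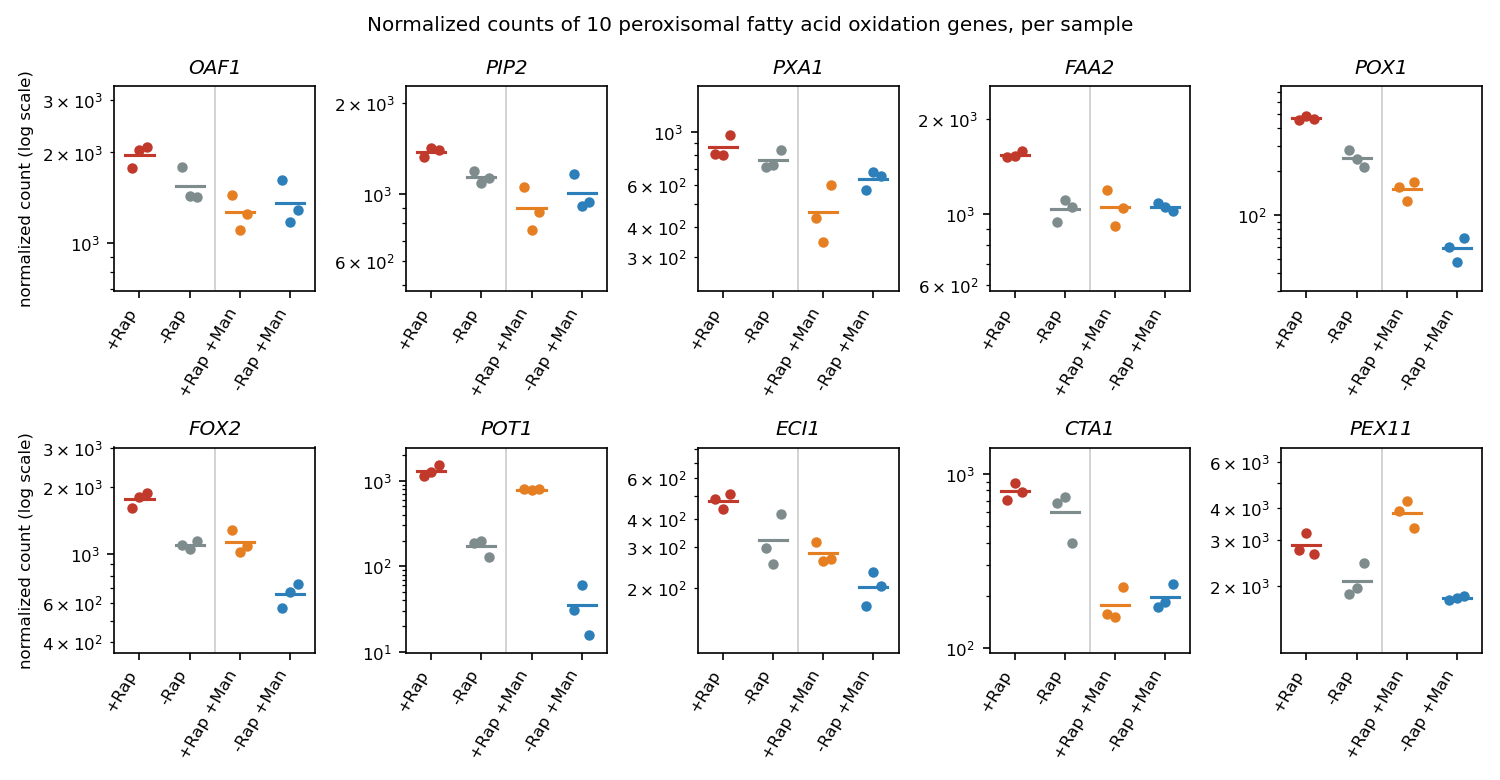
Normalized counts (vertical axis, log scale, separate range per panel) of the 10 genes in the 4 groups of 3 samples, with replicates 1 to 3 as points from left to right within a group and the mean as a bar. POT1 has 1131 to 1527 in +Rap and 128 to 195 in -Rap samples, and CTA1 sits below its Flo+ levels in both mannose groups.

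PEX11 encodes a membrane protein that elongates peroxisomes before they divide. It had 2751, 3196 and 2671 normalized counts in +Rap samples, against 1871, 1972 and 2455 in -Rap samples. It had 3896, 4262 and 3354 in +Rap +Man samples, against 1777, 1806 and 1841 in -Rap +Man samples. The groups were separate in both experiments, with a wider gap under mannose, where the controls were nearly equal. The log2 change was 0.46 (SE 0.14, adjusted p = 0.028) in the Flo+ experiment, not called, and 1.11 (SE 0.13, adjusted p = 0.00011) in the Flo- experiment. Without the second +Rap +Man sample the Flo- change was 0.996, just under the size asked.

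The genes of fatty acid activation and entry were FAA2 and PXA1. FAA2 encodes the peroxisomal acyl-CoA synthetase that activates medium-chain fatty acids inside the organelle. It had 1513, 1528.5 and 1582 normalized counts in +Rap samples, against 947, 1112 and 1054 in -Rap samples. It had 1189, 916 and 1049 in +Rap +Man samples, against 1086, 1055 and 1026 in -Rap +Man samples. The Flo+ groups were separate, whereas under mannose the control range lay inside the treated range. The log2 changes were 0.58 (SE 0.11, adjusted p = 0.0037) and 0.02 (95% interval -0.29 to 0.33, adjusted p = 0.93). FAA2 overlaps YER014C-A on the opposite strand, and the strand setting of the counting is not given in the sources used here, so reads of the overlap may belong to either gene.

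PXA1 encodes a subunit of the ABC transporter that brings long-chain acyl-CoA across the peroxisomal membrane. It had 809, 799 and 968 normalized counts in +Rap samples, against 714, 725 and 841 in -Rap samples. It had 437, 345 and 599 in +Rap +Man samples, against 572, 679 and 650 in -Rap +Man samples, with overlap in both experiments. The log2 changes of 0.18 (95% interval -0.11 to 0.47, adjusted p = 0.29) and -0.46 (95% interval -0.93 to 0.001, adjusted p = 0.086) did not pass.

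CTA1 encodes the peroxisomal catalase, which removes the hydrogen peroxide made by the oxidase. It had 702, 881 and 785 normalized counts in +Rap samples, against 678, 731 and 398 in -Rap samples, where the third sample was the low one. It had 157, 150.3 and 224 in +Rap +Man samples, against 172, 185 and 233 in -Rap +Man samples. The log2 changes were 0.43 (95% interval -0.09 to 0.96, adjusted p = 0.16) and -0.13 (95% interval -0.62 to 0.36, adjusted p = 0.65). CTA1 thus passed no test of rapamycin in either experiment, and it was not compared with POX1 by a test. Without the third -Rap sample its Flo+ log2 change was 0.16.

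OAF1 and PIP2 encode the partners of the transcription factor that binds the ORE. OAF1 had 1781, 2036 and 2081 normalized counts in +Rap samples, against 1790.3, 1428 and 1425 in -Rap samples, with the first -Rap sample inside the +Rap range. It had 1442, 1103 and 1250.0 in +Rap +Man samples, against 1622, 1176 and 1286 in -Rap +Man samples. PIP2, which itself carries an ORE match, had 1331, 1426 and 1396 normalized counts in +Rap samples, against 1189.7, 1086 and 1132 in -Rap samples. It had 1057, 763 and 874 in +Rap +Man samples, against 1164, 917 and 939 in -Rap +Man samples. The PIP2 groups were separate in the Flo+ experiment and overlapped under mannose. The log2 changes of OAF1 were 0.35 (SE 0.13, adjusted p = 0.060) and -0.07 (SE 0.17, adjusted p = 0.74), and those of PIP2 were 0.29 (SE 0.10, adjusted p = 0.047) and -0.14 (SE 0.17, adjusted p = 0.51). Neither gene was called in either experiment.

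Counted without a test, all 3 +Rap samples lay above all 3 -Rap samples for 7 of 10 members (POX1, FOX2, POT1, ECI1, PEX11, FAA2 and PIP2), against 28.5% of all genes tested. Under mannose this held for 5 of 10 (POX1, FOX2, POT1, ECI1 and PEX11), also against 28.5% of all genes.

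**Figure D3:**
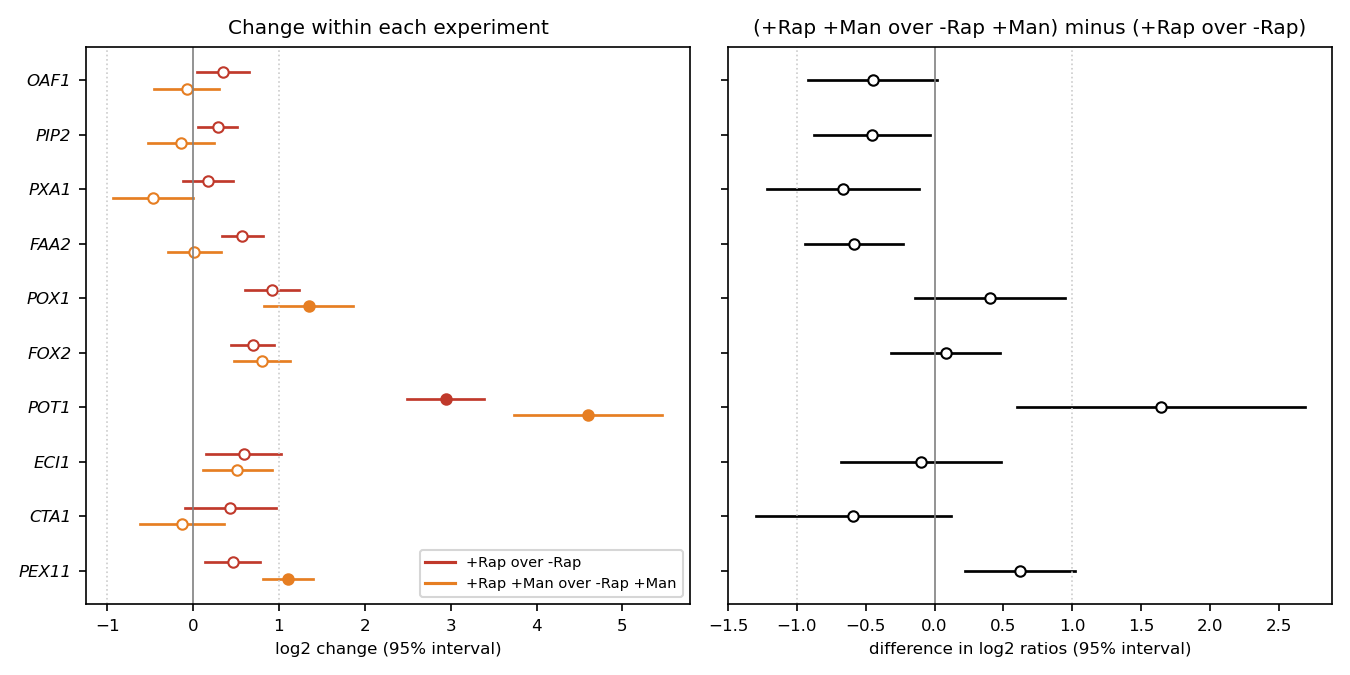
Log2 change of each of the 10 genes within the Flo+ (red) and Flo- (orange) experiment on the left, and the difference in log2 ratios on the right, with 95% intervals as lines, filled points for called changes and dotted lines at a size of 1. POT1 stands at 2.94 and 4.60, and none of the 10 differences on the right is called.

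The difference in log2 ratios, the change under mannose minus the change without it, asks whether the response to Cyc8p depletion differed when flocculation was blocked. It was fitted in limma as an interaction over all 12 samples. Of the 10 members, 0 were called higher, against 2.61% of all 6403 genes, and 0 were called lower, against 1.16%. The count of calls was also 0 with limma's voom weights. At an unadjusted p under 0.05, whatever the size or direction, there were 5, against 30.2% of all genes, and at an adjusted p of up to 0.05 there were 3, against 13.8%. POT1 had a difference of 1.64 (SE 0.48, 95% interval 0.60 to 2.69, adjusted p = 0.040), PEX11 one of 0.62 (SE 0.19, adjusted p = 0.043) and FAA2 one of -0.59 (SE 0.17, adjusted p = 0.034). Without the second -Rap +Man sample, the one with the most POT1 reads of the mannose controls, the POT1 difference was 2.09 (adjusted p = 0.0044) and would be called. Over all samples left out in turn, the adjusted p of the POT1 difference lay between 0.0044 and 0.095. That of PEX11 lay between 0.035 and 0.118, and that of FAA2 between 0.025 and 0.092.

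The other 7 members did not pass after adjustment. FOX2 had a difference of 0.08 with a 95% interval of -0.31 to 0.48, and ECI1 one of -0.10 with an interval of -0.68 to 0.48. POX1, although called in the Flo- and not in the Flo+ experiment, had a difference of 0.40 with an interval of -0.14 to 0.95 (adjusted p = 0.31). PXA1, PIP2 and CTA1 were higher in the +Rap sample of all 3 same-numbered pairs and lower in the +Rap +Man sample of all 3. The 95% intervals of the difference, which are not adjusted, left out 0 for PXA1 (-0.67, -1.22 to -0.12, adjusted p = 0.099) and PIP2 (-0.45, -0.87 to -0.03, adjusted p = 0.14). CTA1 had a difference of -0.59 (-1.30 to 0.12, adjusted p = 0.25) and OAF1 one of -0.45 (-0.92 to 0.02, adjusted p = 0.18).

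The control levels that enter these ratios were themselves unequal. Between -Rap +Man and -Rap samples, 3 of 10 members were called lower at an adjusted p of up to 0.05, against 11.3% of all 6403 genes, and 0 of 10 higher, against 11.7%. These were POT1 with a log2 change of -2.36 (SE 0.34, adjusted p = 9.0e-05), POX1 with -2.03 (SE 0.18, adjusted p = 9.5e-07) and CTA1 with -1.57 (SE 0.23, adjusted p = 0.00011). FOX2 and ECI1 also passed the p threshold, at less than the size asked, with log2 changes of -0.74 (SE 0.13, adjusted p = 0.00041) and -0.66 (SE 0.19, adjusted p = 0.011). The other 5 lay between -0.26 and 0.03 and did not pass. Counted without a test, all 3 -Rap +Man samples lay below all 3 -Rap samples for 7 of 10 members (POT1, POX1, CTA1, FOX2, ECI1, PXA1 and PEX11), against 26.5% of all genes. Mannose and sequencing run cannot be told apart in this. The treated samples were not tested between experiments, but their ranges were separate for all 10 members, with 9 lower in +Rap +Man than in +Rap samples, against 37.9% of all genes, and PEX11 higher, against 37.5%. Most genes thus had separate ranges between the treated samples of the experiments.

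Levels can be compared between genes only per length, and are given here as normalized counts per kb of gene. PEX11 led in every sample, at 4040 ± 397 per kb in +Rap and 2953 ± 439 in -Rap samples, and at 5397 ± 642 in +Rap +Man and 2543 ± 45.4 in -Rap +Man samples (SD, n = 3 each). POT1 was second in every treated sample of both experiments, at 1041 ± 161 per kb in +Rap and 627 ± 6.90 in +Rap +Man samples, with a range that did not reach that of the gene below it. In the controls it was next to POX1 at the bottom of the order, at 136 ± 29.7 per kb in -Rap and 28.3 ± 17.9 in -Rap +Man samples. POX1 had the lowest mean in all 4 groups, at 207 ± 7.67 per kb in +Rap, 109.6 ± 14.9 in -Rap, 67.0 ± 10.4 in +Rap +Man and 26.4 ± 4.87 in -Rap +Man samples. Its range overlapped that of POT1 in both control groups, so these neighbours in the order did not differ beyond their spread there, and it was separate from the other members. In between, FAA2, FOX2, OAF1, ECI1, CTA1 and PIP2 followed each other in the +Rap samples with overlapping ranges, at means of 689 to 463 per kb. CTA1 was near these genes in the -Rap samples, at 389 ± 115 per kb, but stood below all except POT1 and POX1 in the -Rap +Man samples, at 127 ± 20.8 per kb. POT1 thus had more reads per kb than POX1 in all treated samples by a wide margin, while the genes for the first and last enzyme of the cycle were close in the controls.

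**Figure D4:**
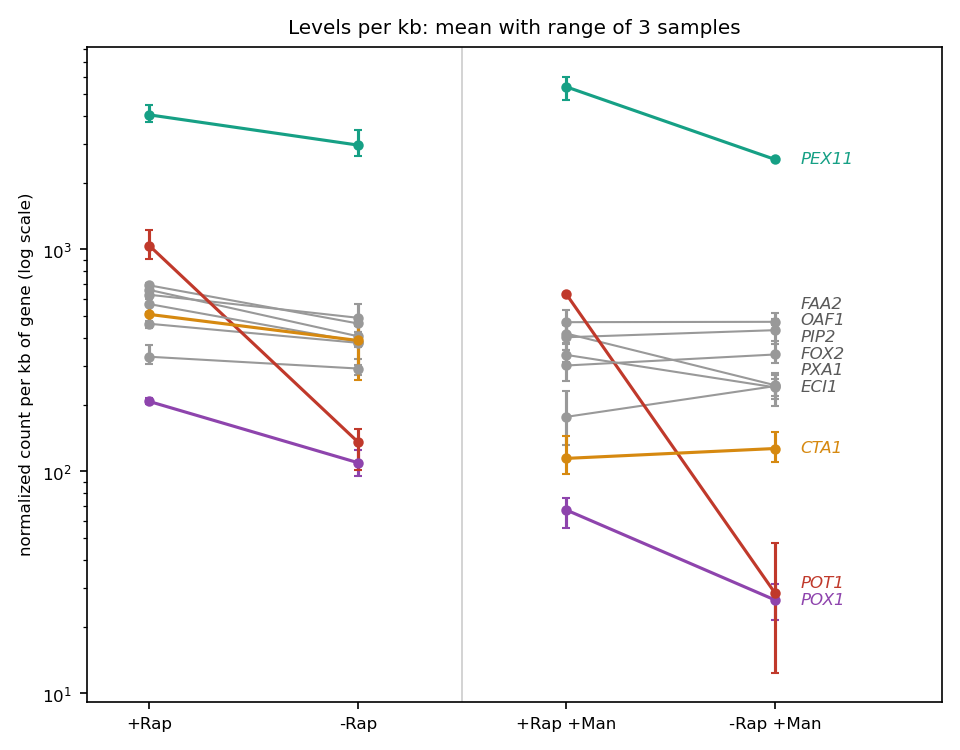
Normalized counts per kb of gene (vertical axis, log scale) in the 4 groups, with the mean of 3 samples as a point, their range as a bar and a line joining the groups of each experiment. POT1 is second of the 10 genes in both treated groups, at 1041 in +Rap and 627 in +Rap +Man samples, and next to POX1 at the bottom in both control groups.

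Across the 12 samples, with log2 levels centred within each experiment, POX1 and FOX2 (r = 0.93), OAF1 and PIP2 (r = 0.92) and POT1 with each of POX1, FOX2 and PEX11 (r = 0.91) followed each other most closely, while PXA1 and PEX11 ran opposite (r = -0.57). The points share libraries and the rapamycin contrast, so these are descriptions only. By the same measure, the genes most like POT1 were CRR1, GAT3 and YAL064W (r = 0.99 each, 12 samples). Those most like POX1 were YJR154W, PDR10 and YLR030W (r = 0.98 each). Those most like PEX11 were PCS60, ERG25 and YHR112C (r = 0.98 each), of which PCS60 encodes another peroxisomal protein.

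Other genes of the pathway were described by fixed lists. Among 11 further genes of fatty acid oxidation, 3 were called higher and 0 lower in the Flo+ experiment, with a median log2 change of 0.36. In the Flo- experiment there were again 3 and 0, with a median of 0.50. Over all genes, 11.0% were called higher and 2.08% lower in the Flo+ experiment, and 14.8% and 2.59% in the Flo- experiment. SPS19, the dienoyl-CoA reductase for polyunsaturated chains, and LPX1, a peroxisomal lipase, were called in both. The log2 changes of LPX1 were 1.59 (SE 0.12, adjusted p = 3.1e-05) and 2.06 (SE 0.14, adjusted p = 3.2e-06), and those of SPS19 were 1.03 (SE 0.19, adjusted p = 0.0036) and 2.50 (SE 0.25, adjusted p = 4.9e-05). DCI1, an isomerase related to Eci1p, was called in the Flo+ experiment (1.38, adjusted p = 0.0069; 0.88 under mannose). PCS60 was called in the Flo- experiment (1.58, adjusted p = 2.6e-05; 0.86 without mannose). The difference between experiments was called for none of the 11, against 2.61% of all genes called higher and 1.16% lower.

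The acetyl-CoA that leaves the thiolase is carried to mitochondria on carnitine or enters the glyoxylate cycle. Among 8 genes for these steps, 3 were called higher in both experiments, CRC1, CAT2 and YAT1, against 11.0% of all genes in the Flo+ and 14.8% in the Flo- experiment. CRC1, the mitochondrial carnitine carrier, averaged 507 ± 112 normalized counts with rapamycin and 126 ± 19.9 without it in the Flo+ experiment (SD, n = 3 each), a log2 change of 1.98 (adjusted p = 0.00017), and 2.07 under mannose (adjusted p = 8.2e-06). CAT2, the carnitine acetyltransferase of peroxisomes and mitochondria, changed by 1.61 (adjusted p = 5.0e-05) and 1.87 (adjusted p = 2.5e-05). YAT1, the acetyltransferase of the outer mitochondrial membrane, changed by 1.38 (adjusted p = 0.0003) and 2.26 (adjusted p = 5.0e-06). YAT2, a further carnitine acetyltransferase, was not called, at -0.11 (adjusted p = 0.42) and -0.02 (adjusted p = 0.92). CIT2, the peroxisomal citrate synthase, was called lower in the Flo+ experiment, at 4014 ± 277 normalized counts with rapamycin and 13541 ± 1758 without it and a log2 change of -1.75 (adjusted p = 2.7e-05). Under mannose its log2 change was -0.71 (SE 0.40, adjusted p = 0.17), with a wide spread of the controls, at 4738 ± 1538 in +Rap +Man and 8653 ± 5721 in -Rap +Man samples. Between the controls, MLS1, the malate synthase, was called lower with mannose (-1.22, adjusted p = 0.0044).

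Most of the 28 peroxins, which build peroxisomes and import their enzymes, were not called, with median log2 changes of 0.06 in the Flo+ and -0.18 in the Flo- experiment. In the Flo+ experiment 1 was called higher, against 11.0% of all genes, and 1 lower, against 2.08%. In the Flo- experiment 2 were called higher, against 14.8%, and 1 lower, against 2.59%. PEX18 was called higher in both. Its product is a co-receptor of Pex7p in the route by which thiolase enters the organelle. It averaged 676 ± 54.2 normalized counts in the +Rap group and 148 ± 20.7 in the -Rap group, and 335 ± 65.8 in +Rap +Man and 18.6 ± 8.54 in -Rap +Man samples (SD, n = 3 each). The log2 changes were 2.19 (SE 0.14, adjusted p = 1.5e-05) and 4.12 (SE 0.32, adjusted p = 8.0e-06), and the difference of 1.92 (SE 0.37, adjusted p = 0.0055) was called. As for POT1, the controls with mannose were the lowest group, and its log2 change between the controls was -2.94 (adjusted p = 9.5e-07). PEX7 itself was not called, at 0.02 (adjusted p = 0.87) and -0.15 (adjusted p = 0.38).

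PEX2, a ubiquitin ligase subunit of the import machinery, was called lower in both experiments, at -1.83 (adjusted p = 2.1e-05) and -1.95 (adjusted p = 1.8e-06). PEX27, which is related to PEX11, was called higher under mannose, at 1.18 (adjusted p = 0.0003), and had 0.69 (adjusted p = 0.0012) without it. Between the controls, PEX14 was called higher with mannose and PEX18, PEX27 and PEX29 were called lower. These were 1 of 28 peroxins higher, against 11.7% of all genes, and 3 of 28 lower, against 11.3%.

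Of 6 regulators, ADR1 and MIG3 were called higher in both experiments, against 11.0% of all genes in the Flo+ and 14.8% in the Flo- experiment. ADR1, the activator of peroxisomal and ethanol-use genes, averaged 22013 ± 1937 normalized counts in the +Rap group and 2749 ± 1355 in the -Rap group, and 9000 ± 1088 in +Rap +Man and 941 ± 460.3 in -Rap +Man samples (SD, n = 3 each). Its log2 changes were 3.11 (SE 0.29, adjusted p = 0.00012) and 3.38 (SE 0.29, adjusted p = 1.6e-05), with a difference of 0.25 (SE 0.46, adjusted p = 0.76). This stood beside the log2 changes of 0.35 or less of OAF1 and PIP2. MIG3, a DNA-binding repressor, changed by 2.17 (adjusted p = 0.00037) and 1.47 (adjusted p = 2.1e-05). Between the controls, ADR1 was called lower with mannose (-1.54, adjusted p = 0.0017) and MIG2, a glucose-dependent repressor, higher (1.35, adjusted p = 0.00042). Whether ADR1 had a part in the changes of the 10 genes was not tested.

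**Figure D5:**
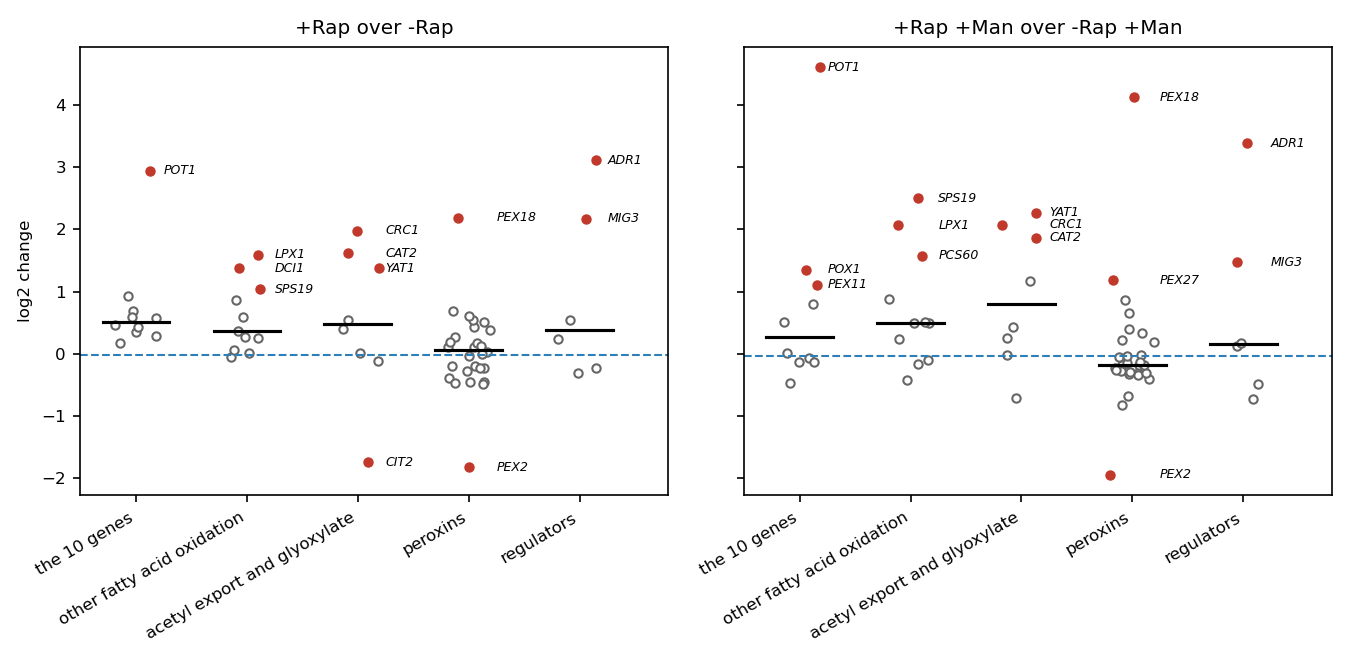
Log2 change of each gene (vertical axis) in the Flo+ experiment (left) and the Flo- experiment (right), for the 10 genes and the 4 further lists, with called genes as red named points, others as open points, list medians as black bars and the median of all genes as a dashed line. POT1, PEX18 and ADR1 are the highest named points of their lists on both sides.

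The ORE match was also counted outside the 10 genes. It was present in 5 of the 11 further genes of fatty acid oxidation (45.5%), 3 of the 8 acetyl export and glyoxylate genes (37.5%), 3 of the 28 peroxins (10.7%) and 0 of the 6 regulators. Among the genes with a match that are not members, 24 of 105 tested were called higher in the Flo+ experiment (22.9%, against 11.0% of all genes) and 25 of 102 in the Flo- experiment (24.5%, against 14.8%), and 2 were called lower in each. These counts include the matching genes of the further lists. Of those, SPS19, CRC1 and YAT1 were called higher in both experiments and DCI1 in the Flo+ experiment. Among the 8 members with a match, the log2 changes ran from 0.29 for PIP2 to 2.94 for POT1 in the Flo+ experiment, and from -0.14 for PIP2 to 4.60 for POT1 in the Flo- experiment, where CTA1 was also below 0. The 3 members called in an experiment (POT1, POX1 and PEX11) carry a match, as do 5 that were not called (FOX2, ECI1, FAA2, CTA1 and PIP2). The members without a match, OAF1 and PXA1, were not called. Over all genes, 11.0% were called higher in the Flo+ and 14.8% in the Flo- experiment. As 8 of the 10 members carry a match, no link between match and call is read from these counts. Genes that face away from each other can share a match. The part of the ORE in these changes was not tested.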

How the data were processed

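The authors sequenced rRNA-depleted RNA with strand-specific libraries, trimmed reads with fastp 0.20.0, aligned them with STAR 2.7.3 to the ENSEMBL S288c genome and then obtained a read count for each gene. The counting tool, its strand setting, the handling of multi-mapping reads and the annotation release are not given in the sources used here. The authors deposited raw counts, and the same counts divided by DESeq2 size factors, as numbers with digit separators. The deposited columns of the authors' own fold changes, differences in ratios and p-values were not used.

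Everything was computed from the raw counts. In place of the DESeq2 tests of the authors, limma 3.58.1 (R 4.3.3; lmFit, eBayes with trend) was run on log2 values after TMM scaling (30% of log ratios and 5% of mean levels trimmed). To each value 2 counts were added, so fold changes of low genes are understated. Genes with too few reads were left out: 3 or more samples had to reach a level worth 10 counts in a library of median size, and the total had to reach 15. Benjamini-Hochberg adjustment of p-values ran over all genes of a comparison. The calculation was tested on simulated data. Totals of 26125728 to 51088194 counts per sample set the precision, and PCR reads carry no molecular identifiers.

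Treated and control samples come from divided cultures, and same-numbered samples were taken as parts of the same culture, which the labels do not state. Deviations of same-numbered samples correlated at 0.096 to 0.165 in the Flo+ and 0.17 to 0.44 in the Flo- experiment. Those of differently numbered samples correlated at -0.17 to 0.06 and -0.31 to 0.13. The fit with a replicate block was an alternative. Other alternatives were RLE size factors, 0.5 counts added, no filter, voom weights, 1 fit of 12 samples, and leaving out each sample. None of the named genes had a near-identical copy (90% identity over 50% of its length) in the R64 annotation, where 6216 of 6775 genes were found. All members were named. Of the further lists, genes called in a comparison were named, except for a result that is not reported here, and of the called members the 3 most like genes by Pearson correlation. The members and lists were chosen with earlier results of these data known. PEX7, YAT2 and the non-called values of named list genes were chosen after their values were seen.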

Additional observations from a re-analysis of the deposited data

Results flagged for a closer look

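PEX18 responded differently to Cyc8p depletion in the Flo- and Flo+ experiments by the interaction test in limma. The difference in log2 ratios was 1.92 (SE 0.37, adjusted p = 0.0055), and PEX18 was higher in the treated samples of both experiments. The controls averaged only 18.6 ± 8.54 normalized counts in -Rap +Man samples, against 148 ± 20.7 in -Rap samples (SD). The treated samples were also lower under mannose, at 335 ± 65.8 in +Rap +Man, against 676 ± 54.2 in +Rap samples. Mannose and sequencing run cannot be told apart in this.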

How the results depend on the processing

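The numbers of members called (1 in the Flo+ experiment, 3 in the Flo- experiment, 0 in the difference and 3 between the controls) were the same with RLE size factors, 0.5 counts added, no filter, voom weights and, for both experiments, 1 fit of 12 samples. With the replicate block, which pairs same-numbered samples, they were again 1, 3, 0 and 3. With 1 sample left out in turn, the Flo+ count was 1 to 2, as POX1 reached 1.02 (adjusted p = 0.0016) without the first -Rap sample. The Flo- count was 2 to 3, as PEX11 fell just under 1 without the second +Rap +Man sample. The difference had 0 to 1 and the controls 3 to 3. Signs turned only for values near 0 that were not called. The log2 change of FAA2 in the Flo- experiment was -0.013 in the fit of 12 samples and ran from -0.108 to 0.079 with samples left out. The other ranges with samples left out were -0.202 to 0.079 for OAF1 in the Flo- experiment, -0.038 to 0.078 for FAA2 between the controls, -0.302 to 0.058 for ECI1 and -0.018 to 0.157 for FOX2 in the difference. The cause of these turns was not tested. The POT1 difference ran from 1.19 to 2.09. RLE scaling moved the median of all genes to 0.04 in the difference, against -0.01 under TMM. The -Rap +Man samples held only 23 to 70 POT1 reads, and 3 samples per group limit the precision throughout.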
